A study of Rattus norvegicus with 6 samples.

Results

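The rows described here are predicted miRNAs of PC12 cells that the authors numbered themselves. In the deposited names a word that marks a new miRNA stands before rno-miR and the number, and here that word is given as predicted, so that predicted rno-miR335-5p is the 5p row of number 335. The rows were chosen by name and by abundance, as those whose count averaged 10 or more over 6 libraries. The rule took 238 of 705 newly named rows, in a deposited table of 1289 rows. The other 584 rows are named for known rat miRNAs, and 374 of them also reached a mean of 10 counts. These 374 known rows served as the comparison, except in the test of EN against EC. There the known rows were the 380 that passed that test's own filter, without the limit of 10 counts. PC12 is a rat adrenal pheochromocytoma line used as a model of neuroendocrine and neuron-like cells. The labels assign 3 libraries to EC and 3 to EN without saying what either abbreviation stands for. The series title concerns exosomes of Netrin-1 engineered endothelial cells and the repair of peripheral nerves. All groups are the same cell line, and the labels give no further genotype, dose or time.

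A miRNA is cut from a hairpin transcript, first in the nucleus by Drosha and then in the cytoplasm by Dicer. The strand from the 5′ side of the hairpin is called 5p and the strand from the 3′ side 3p, and in most known miRNAs one arm accumulates far above the other. Argonaute proteins hold the mature strand, and the bases near its 5′ end, called the seed, pair with target mRNAs. A predicted miRNA is a stack of short reads whose surrounding genome sequence could fold into such a hairpin. It has no assigned function or target. The numbers are the authors' own and are unrelated to those of known miRNAs such as miR-335.

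By name, 0 of 705 newly named rows were in the RefSeq table of rat mature miRNAs, where the authors' own numbers could not match. The deposited table gives these rows no sequence or position, so whether RefSeq holds their sequences could not be looked up. One known miRNA is shown, because its counts alternated with those of an abundant newly named row, predicted rno-miR335-5p, from library to library. It is the 3p arm of miR-378a, from a hairpin inside the gene of the metabolic coactivator PGC-1beta. The RefSeq sequence (GRCr8) is 21 bases long, with the seed, bases 2 to 8, in capitals, and 0 other mature miRNAs of that table share this seed.
rno-miR-378a-3p: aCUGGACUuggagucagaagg

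The libraries held between 6153582 and 6554639 miRNA counts in EC and between 4521694 and 5371351 in EN, so the groups did not overlap in miRNA counts. The library totals implied by the deposited RPM values did overlap. They ran from 19102486 to 21207786 in EC and from 17861218 to 19993630 in EN. Levels are CPM, counts scaled to a common library total with TMM factors, given as mean ± SD over 3 libraries, and are not scaled by length. All 7 neuroendocrine markers were listed, with summed levels of 2257 to 2759 CPM in EC and 2315 to 2805 in EN. These markers were unequal in abundance. Over 6 libraries the mean count was 7272.5 for miR-9a-5p, but only 12.3 for miR-132-3p and 22.2 for miR-212-3p. The 2 endothelial arms of miR-126a summed to 1064 to 1144 CPM in EC and 1086 to 1229 in EN. The 6 blood cell miRNAs summed to 94.1 to 127 CPM in EC and 157 to 178 in EN, without overlap. The 4 muscle miRNAs summed to 1.76 to 30.6 and 1.75 to 2.41 CPM, the 1 liver miRNA lay at 5.96 to 9.74 and 8.23 to 14.4 CPM, and 0 markers of any list were at 0 in every library. It is not stated whether replicates are separate cultures, and the spread behind every p-value may therefore be technical. In bulk RNA, fewer cells with a miRNA and less of it per cell cannot be told apart.

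The newly named rows were mostly scarce. Only 33.8% of them reached the mean of 10 counts, against 64.0% of known rows, and 186 newly named rows had a mean under 1. The 238 rows had a median mean count of 41.9, against 335 for the 374 known rows, and held 2.07% of all miRNA counts. A few rows carried most of this. The most abundant row held 16.1% of the counts of the 238 rows, the top 3 held 34.1%, the top 10 held 64.8%, and 39 rows made up 90%. Of the 100 most abundant rows of the table, 12 were newly named, and 25 of the top 200 were. Both arms were about as frequent, with 125 rows named 5p and 113 named 3p.

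**Figure D1:**
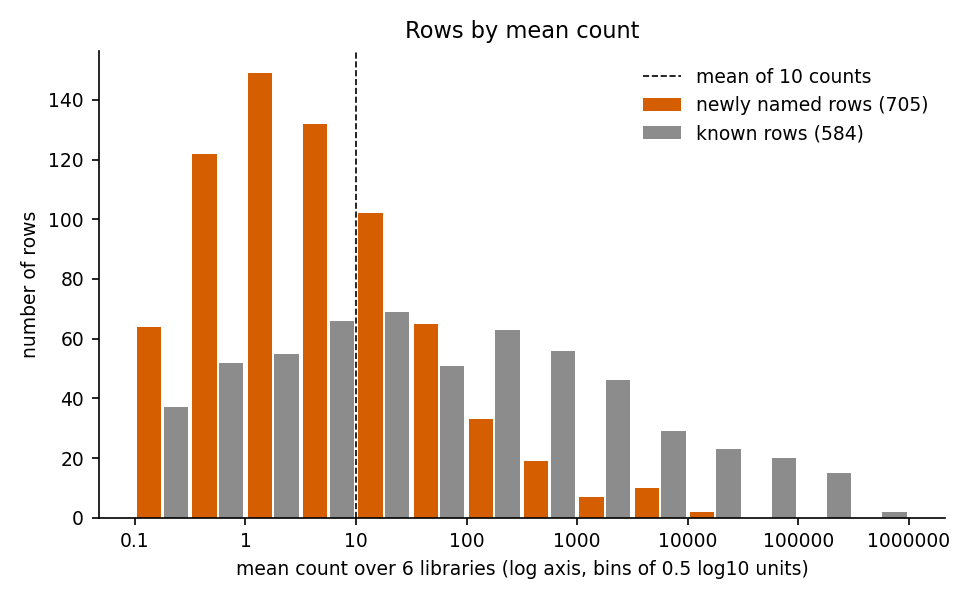
Number of rows (vertical axis) by mean count over 6 libraries (horizontal log axis, bins of 0.5 log10 units), for 705 newly named rows (orange) and 584 known rows (grey). The dashed line marks the mean of 10 counts, and the known rows extend far beyond the most abundant newly named row.

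Around the limit of 10 counts, rows on either side had similar counts. Just inside, predicted rno-miR503-3p had 15, 2 and 4 counts in EC and 8, 14 and 17 in EN. The next rows inside, predicted rno-miR395-3p and predicted rno-miR485-5p, had a mean count of 10.2 each. Just outside, predicted rno-miR221-5p had 6, 23 and 6 counts in EC and 17, 5 and 1 in EN, a mean of 9.67. The mean counts of predicted rno-miR182-3p and predicted rno-miR620-3p were 9.33 and 9.17. In single libraries these rows ranged from 1 to 23 counts, so the side of the limit rests on few reads.

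The most abundant newly named row, predicted rno-miR427-5p, had 19655, 21533 and 24391 counts in EC and 19349, 13886 and 13424 in EN. It stood at rank 49 of all rows, with 48 known rows above it. Its level, 3400 ± 346 CPM in the EC and 3232 ± 324 in the EN libraries, lay among those of 3 known miRNAs. These were miR-151-5p at 3744 ± 137 and 2974 ± 166 CPM, miR-125a-5p at 3656 ± 457 and 3121 ± 48.6 CPM, and the inflammation-associated miR-146a-5p at 2994 ± 114 and 3487 ± 335 CPM. Between the groups, predicted rno-miR427-5p differed by a log2 fold change of -0.07 (SE 0.12, adjusted p = 0.771, edgeR quasi-likelihood test), and its libraries overlapped.

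The within-group SD of log2 CPM was 0.14 for predicted rno-miR427-5p and ran from 0.14 to 0.40 in the next 6 rows described. For predicted rno-miR9-3p, the counts were 12459, 11024 and 10967 in EC and 10365, 10549 and 10110 in EN, or 1786 ± 127 against 2182 ± 249 CPM. Its log2 fold change of 0.29 did not pass (SE 0.12, adjusted p = 0.228, edgeR). For predicted rno-miR532-5p, levels were 1111 ± 154 and 1284 ± 89.6 CPM. For predicted rno-miR226-3p they were 892 ± 134 and 806 ± 185 CPM, and for predicted rno-miR596-5p 755 ± 107 and 892 ± 115 CPM. The rows predicted rno-miR75-5p, at 685 ± 237 and 798 ± 114 CPM, and predicted rno-miR517-5p, at 769 ± 94.3 and 679 ± 112 CPM, also belonged to the top 10. None of these 5 rows passed the edgeR test, with adjusted p from 0.428 to 0.695.

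The top 10 also held 2 rows with larger differences that did not pass. For predicted rno-miR570-5p, the counts were 6368, 6409 and 6819 in EC and 2127, 3486 and 2442 in EN. Every EC library was above every EN library, at 1016 ± 29.6 against 575 ± 205 CPM, with a log2 fold change of -0.82 (SE 0.24, adjusted p = 0.0951, edgeR). For predicted rno-miR61-3p, the counts were 12153, 4685 and 11257 in EC and 4052, 4114 and 3554 in EN. EC replicate 2 lay with the EN libraries, and the log2 fold change of -0.82 had an adjusted p of 0.247 in edgeR (SE 0.35). Without EC replicate 2 it was -1.11 with an adjusted p of 0.0105, and DESeq2 on all 6 libraries gave -0.84 with an adjusted p of 0.0361.

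The remaining row of the top 10, predicted rno-miR335-5p, was abundant in 2 libraries only. Its counts were 58, 29387 and 346 in EC and 29467, 174 and 87 in EN. EC replicate 2 and EN replicate 1 were high and the other 4 libraries low, so the split ran across both groups. In these 2 libraries the row held 0.478% and 0.549% of all miRNA counts, and in the other 4 at most 0.00528%. The known miR-378a-3p ran the other way, with 27383, 271 and 32108 counts in EC and 2883, 38383 and 36054 in EN. Of the counts of both rows together, predicted rno-miR335-5p held 99.1% in EC replicate 2 and 91.1% in EN replicate 1, and between 0.211% and 1.07% elsewhere. The summed level was far steadier, at 4238, 4736 and 4956 CPM in EC and 5986, 8815 and 7918 CPM in EN. Pearson's r between both levels was -0.87 over 6 libraries, a description only, since the pair was picked after its values were seen. Whether the same reads were counted under different names in different libraries was not tested, since the newly named row has no sequence here.

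**Figure D2:**
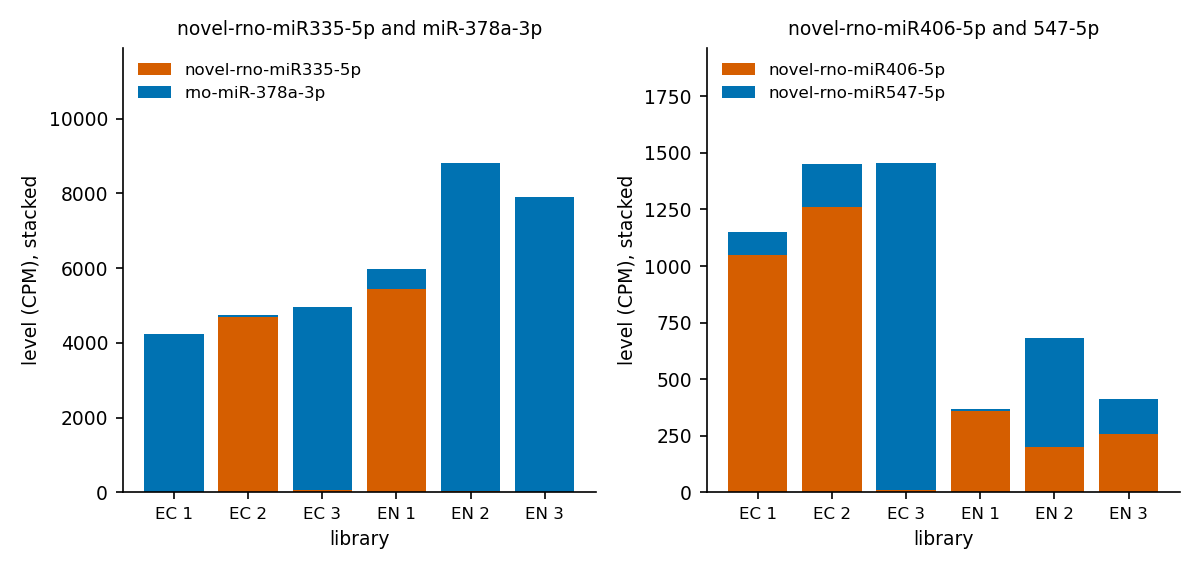
Stacked levels (CPM, vertical axis) in each of 6 libraries (horizontal axis) of predicted rno-miR335-5p with rno-miR-378a-3p (left) and of predicted rno-miR406-5p with predicted rno-miR547-5p (right). The height of a bar is the sum of both rows, which within a group differed less than 2-fold, while the share of each colour alternated between libraries.

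A 2nd abundant pair of this kind lay wholly among the newly named rows. The counts of predicted rno-miR406-5p were 6786, 7885 and 54 in EC and 1933, 875 and 1170 in EN. Those of predicted rno-miR547-5p were 670, 1204 and 9476 in EC and 62, 2110 and 717 in EN. EC replicate 3 was the library where the first was low and the second high. The share held by predicted rno-miR406-5p was 91.0, 86.8 and 0.567% in EC and 96.9, 29.3 and 62.0% in EN. Their sum was 1152, 1451 and 1455 CPM in EC and 369, 682 and 413 CPM in EN. As single rows both overlapped between the groups, with log2 fold changes of -1.51 (SE 1.61, adjusted p = 0.665) and -1.42 (SE 1.72, adjusted p = 0.695) in edgeR. The sums did not overlap, but the pair was formed after its values were seen, so no test of the sum is given.

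Such pairs were found by 1 rule, chosen after the data were seen. Both rows had a highest level of 10 or more times the lowest within a group, and their sum stayed under 2 times in both groups. Among 494 pairs tried, 7 met it, involving 9 newly named rows. The pairs were not exclusive, since predicted rno-miR274-5p and predicted rno-miR248-5p each met the rule with more than 1 partner. In 2 of these pairs, the ones above, both rows had a mean of 100 or more counts. In the others the counts were small. For example, predicted rno-miR293-5p had 2, 0 and 200 counts in EC and 229, 146 and 6 in EN, where predicted rno-miR397-5p had 355, 189 and 2 in EC and 0, 0 and 133 in EN. The latter pair summed to 357, 189 and 202 counts in EC and 229, 146 and 139 in EN. Another pair joined predicted rno-miR274-5p to the muscle miRNA miR-206-3p, which had 187 counts in EC replicate 1, where the newly named row had 2. Elsewhere miR-206-3p had between 5 and 21 counts, so that pair alternated in EC replicate 1 alone.

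Altogether 19 of the 238 rows (7.98%) had a highest level of at least 10 times the lowest within EC or within EN, computed on CPM + 0.5. The same held for 17 of the 374 known rows (4.55%). By mean count the shares were 7.19% of newly named and 3.33% of known rows from 10 to under 100 counts. From 100 to under 1000 counts they were 5.77% and 3.36%, and at 1000 or more counts 21.1% (4 of 19) and 6.67% (9 of 135). Of the 19 newly named rows, 18 were 5p rows and 1 was a 3p row, or 14.4% of all 5p and 0.885% of all 3p rows in the set. Among the 17 known rows, 4 were 5p, 8 were 3p and 5 had no arm in the name. In 12 of the 19 the other arm was not listed, and 10 had a library at 0 counts. Together the 19 held 15.3% of the counts of the set.

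The widest range was that of predicted rno-miR199-5p, with 3789, 3 and 11 counts in EC and 106, 21 and 2595 in EN. EC replicate 1 and EN replicate 3 were high, which is a different pair of libraries from that of predicted rno-miR335-5p. The within-group ratio was 598 for predicted rno-miR199-5p, 496 for predicted rno-miR335-5p and 144 for predicted rno-miR406-5p. It was 68.7 for predicted rno-miR397-5p, 46.2 for predicted rno-miR274-5p and 40.3 for predicted rno-miR547-5p. The counts of predicted rno-miR274-5p were 2, 231 and 165 in EC and 178, 153 and 217 in EN, so EC replicate 1 alone was low. None of these 6 rows passed the test of EN against EC, with adjusted p from 0.665 to 0.997 (edgeR), and their standard errors ran from 1.31 to 3.12 on the log2 scale.

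For each of these 6 rows the most alike and most opposite rows were sought by Pearson's r of CPM over 6 libraries, among the 324 rows that averaged at least 100 counts. With so few libraries and so many rows these are descriptions. The row most like predicted rno-miR335-5p was another newly named 5p row, predicted rno-miR154-5p (r = 0.95), with 30, 947 and 427 counts in EC and 906, 37 and 40 in EN. The most alike rows of the other 5 were miR-194-5p for predicted rno-miR199-5p (0.95), miR-33-5p for predicted rno-miR406-5p (0.92), miR-27b-3p for predicted rno-miR397-5p (0.91), miR-149-5p for predicted rno-miR274-5p (0.97) and miR-3588 for predicted rno-miR547-5p (0.90). The most opposite rows were predicted rno-miR207-5p for predicted rno-miR199-5p (-0.93), miR-129-5p for predicted rno-miR335-5p (-0.91) and miR-92a-3p for predicted rno-miR406-5p (-0.90). They were predicted rno-miR61-5p for predicted rno-miR397-5p (-0.93), miR-186-5p for predicted rno-miR274-5p (-0.96) and miR-3559-3p for predicted rno-miR547-5p (-0.90).

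Below 1000 counts the median spread of newly named rows lay close to that of known rows of like abundance. At 1000 or more counts it was larger, but that class has no upper limit. In it 48 known rows lay above the most abundant newly named row. The median within-group SD of log2 CPM was 0.43 for 167 newly named and 0.39 for 120 known rows from 10 to under 100 counts. From 100 to under 1000 counts it was 0.24 (52 rows) and 0.22 (119 rows). At 1000 or more counts it was 0.27 (19 rows) and 0.16 (135 rows). An SD of 1 or more was reached by 13.8, 7.69 and 21.1% of newly named rows in the 3 classes and by 5.83, 3.36 and 6.67% of known rows. Of the 238 rows, 225 were counted in all 6 libraries, 7 were at 0 in 1 library and 6 at 0 in 2. Of the 374 known rows, 4 had a library at 0. From 10 to under 100 counts, 12 of 167 newly named and 2 of 120 known rows had such a library. From 100 to under 1000 counts it was 1 of 52 and 2 of 119, and at 1000 or more counts 0 of both kinds. No newly named row (0 of 238) had the same 6 counts as another of the 612 rows that averaged at least 10 counts.

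**Figure D3:**
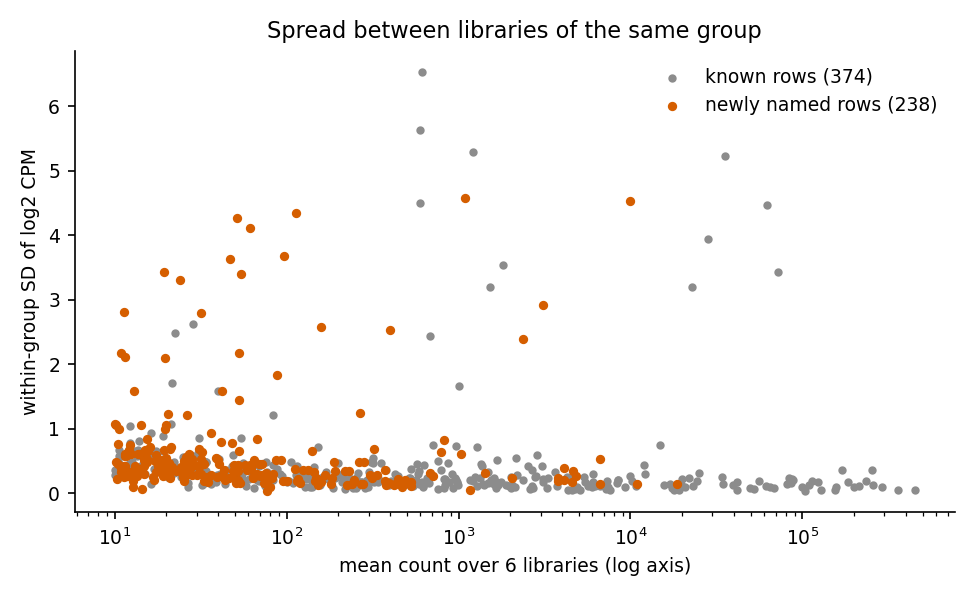
Within-group SD of log2 CPM (vertical axis) against the mean count over 6 libraries (horizontal log axis) for 238 newly named rows (orange) and 374 known rows (grey). Most rows of both kinds lie under an SD of 1, and a scattered few of each kind lie far above it at every abundance.

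The share of miRNA counts in the 238 rows was 1.88, 2.41 and 2.06% in EC and 2.36, 1.86 and 1.76% in EN. The highest library of each group was the one rich in predicted rno-miR335-5p. The groups overlapped, at 2.12 ± 0.271% and 1.99 ± 0.320%, a difference of -0.127 percentage points (two-sided exact permutation test, p = 0.5, where 3 against 3 libraries cannot go below 0.1). Without EC replicate 2 the difference was 0.0197 points (exact permutation p = 1). Without the 19 rows of wide range the shares were 1.69, 1.76 and 1.89% in EC and 1.74, 1.77 and 1.64% in EN, and the groups again overlapped (exact permutation p = 0.5).

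EN was compared with EC in 628 rows of all kinds, which include 236 of the 238 rows. The 2 rows left out by the filter were predicted rno-miR195-5p and predicted rno-miR350-5p. Of all rows tested 3.98% passed an adjusted p of 0.05 in edgeR, 2.07% as higher and 1.91% as lower in EN. Of the 236 newly named rows 7 passed (2.97%), 6 higher and 1 lower, beside 18 of 380 known rows (4.74%), 7 higher and 11 lower. The share of the newly named rows was thus near that of all rows. With library totals implied by the deposited RPM values, 23 newly named rows passed, 11 higher and 12 lower. With 1 library left out, 2 to 14 passed. Leaving out EC replicate 1, 2 or 3 gave 6, 13 or 5 calls, and leaving out EN replicate 1, 2 or 3 gave 14, 2 or 2. The calls among all rows in these alternatives are not given here, so these counts cannot be set against all rows.

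The row with the largest passing difference, predicted rno-miR667-3p, had 3, 5 and 9 counts in EC and 133, 102 and 134 in EN. Every EN library was far above every EC library, at 25.8 ± 3.18 against 0.879 ± 0.461 CPM, and the log2 fold change was 4.84 (SE 0.37, adjusted p = 0.00167, edgeR). The counts of predicted rno-miR466-3p were 14, 9 and 18 in EC and 73, 102 and 96 in EN, with a log2 fold change of 3.17 (SE 0.34, adjusted p = 0.00839, edgeR). These 2 rows passed in all 6 fits that left out 1 library. With an EC mean under 10 counts, predicted rno-miR667-3p entered the set only through EN, the group where it was high, so its place in the set already favoured a difference.

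The other rises were less stable to single libraries. The counts of predicted rno-miR519-5p were 4, 0 and 3 in EC and 37, 34 and 45 in EN, with a fitted log2 fold change of 4.41 (SE 0.61, adjusted p = 0.0167, edgeR). So few EC counts leave the size of this change poorly fixed, and this row too entered the set only through EN. The counts of predicted rno-miR86-3p were 70, 69 and 57 in EC and 134, 105 and 135 in EN, a log2 fold change of 1.36 (SE 0.18, adjusted p = 0.0167, edgeR). The former lost its call without EC replicate 3, EN replicate 2 or EN replicate 3, and the latter without EN replicate 2 or EN replicate 3, with adjusted p up to 0.0678 for both.

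The 3 weakest calls each failed in 4 or more of the 6 fits that left out a library. For predicted rno-miR482-5p there were 13 counts in each EC library and 25, 34 and 47 in EN (log2 fold change 1.89, SE 0.35, adjusted p = 0.0373, edgeR). For predicted rno-miR404-5p, the most abundant of the 7, the counts were 459, 659 and 555 in EC and 811, 974 and 791 in EN, or 87.0 ± 17.3 against 182 ± 37.1 CPM (log2 fold change 1.07, SE 0.22, adjusted p = 0.0471, edgeR). Both lost the call without EC replicate 1, EC replicate 3, EN replicate 2 or EN replicate 3. The 1 row that fell, predicted rno-miR318-5p, had 188, 363 and 360 counts in EC and 57, 81 and 76 in EN, or 47.3 ± 15.9 against 15.2 ± 4.17 CPM (log2 fold change -1.64, SE 0.33, adjusted p = 0.0471, edgeR). It passed only without EC replicate 1, and adjusted p reached 0.161 in the other 5 fits. In all 7 rows the groups did not overlap, and none changed sign in any alternative that tested it.

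**Figure D4:**
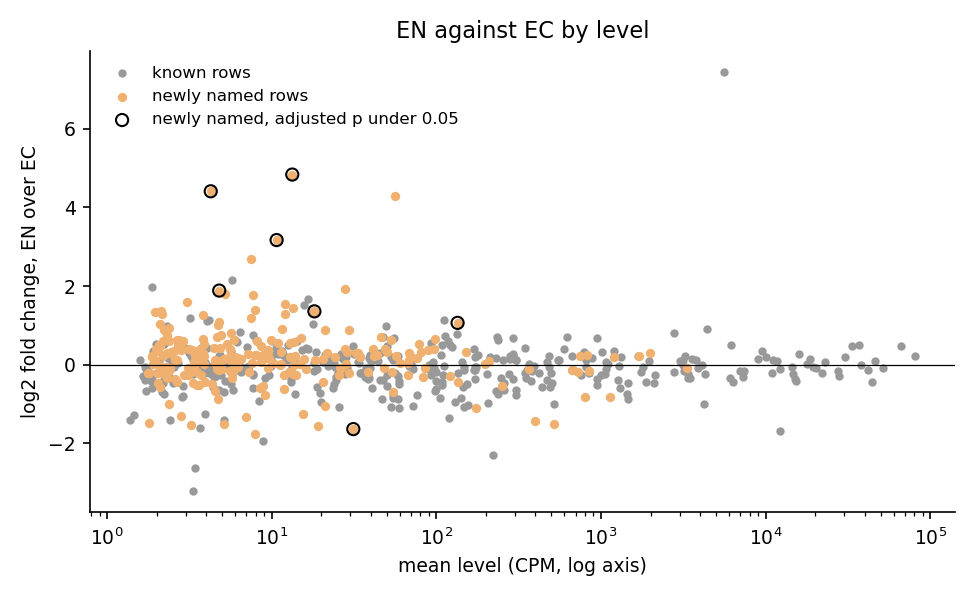
Log2 fold change of EN over EC (vertical axis) against the mean level (CPM, horizontal log axis) for 236 newly named rows (light orange) and 380 known rows (grey). Black circles mark the 7 newly named rows with an adjusted p under 0.05, of which 6 lie above 0 and 1 below, all at low to middle levels.

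A row with a large difference lay just outside the threshold, and it was singled out after its values were seen. For predicted rno-miR619-5p there were 57, 6 and 42 counts in EC and 396, 476 and 627 in EN, with no overlap. EC replicate 2 was the lowest library. The log2 fold change was 4.30 and the row did not pass (SE 0.84, adjusted p = 0.0594, edgeR).

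Over all tested newly named rows the median log2 fold change was 0.18, with 150 positive and 86 negative, beside -0.07 over 380 known rows and 0.02 over all 628. The direction depends on the scaling: with totals implied by RPM the medians were -0.15 over newly named rows and -0.30 over all rows. Rows whose groups did not overlap made up 15.0% (higher in EN) and 14.6% (lower) of all rows tested. Among the newly named rows 46 (19.5%) were higher and 16 (6.78%) lower without overlap, but scaled to the totals behind RPM the numbers were 24 (10.2%) and 43 (18.2%), where all rows had 36 (5.73%) and 213 (33.9%). Among known rows 48 (12.6%) were higher and 76 (20%) lower, against 12 and 169 with those totals. The number of miRNA counts per library and blood cell miRNAs also separated the groups, and their part in these counts was not tested.

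The leaning did not extend to the abundant rows. From 10 to under 100 counts the median log2 fold change was 0.19 over 165 newly named rows, with 5 calls (3.03%). Over 118 known rows of that class it was -0.05, with 3 calls (2.54%). From 100 to under 1000 counts it was 0.19 over 52 newly named rows, with 2 calls (3.85%). Over 119 known rows of that class it was -0.08, with 7 calls (5.88%). At 1000 or more counts it was -0.12 over 19 newly named and -0.08 over 135 known rows. In that last class edgeR called 0 newly named and 8 known rows (5.93%), and 19 rows are few for such a comparison. There 4 newly named rows had an unadjusted p under 0.05 (edgeR), beside 37 of 135 known rows of that class and 136 of all 628 rows. The mean of 10 counts was reached through one group alone in part of the set, since 7 rows had an EC mean under 10 and 17 an EN mean under 10, so these counts describe the set and support no direction.

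Arm pairs were scarcer than among known miRNAs. The newly named rows carry 536 numbers, of which 169 had both arms listed and 367 had only one. For 106 of the 238 rows (44.5%) the other arm was listed anywhere in the table, against 272 of 334 known rows with an arm in their name (81.4%). The gap was also present at 1000 or more counts, a class without an upper limit whose known rows reach higher levels. Of 19 newly named rows with 1000 or more counts the other arm was listed for 4 (21.1%), against 107 of 128 known rows (83.6%). The most abundant rows without a listed partner included predicted rno-miR427-5p and predicted rno-miR9-3p.

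Both arms were in the set for 28 numbers. Their major arm held a median of 72.3% of the pair's counts, from 55.5 to 99.4%, against 94.1% over 111 known pairs. Most newly named pairs were small, and both arms had to reach 10 counts. Among pairs with a sum under 1000 counts the medians were 69.9% (24 newly named) and 80% (35 known), and among larger pairs 98.2% (4 newly named) and 96.8% (76 known). The 5p arm was the major one in 13 of 28 newly named pairs and in 73 of 111 known pairs. The same arm was the larger in all 6 libraries in 20 of 28 newly named pairs and in 99 of 111 known pairs.

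The largest pairs had 1 dominant arm. In the pair predicted rno-miR61 the 3p arm held 95.2%, with mean counts of 336 for 5p and 6636 for 3p. The 5p arm held 99.4% in predicted rno-miR596, 97.7% in predicted rno-miR207, 98.8% in predicted rno-miR179 and 92.0% in predicted rno-miR479, and the 3p arm held 97.4% in predicted rno-miR445. The ratio of the arms kept its sign in every library of these 6 pairs. The widest swings between libraries were those of 3 small pairs, whose arm ratios changed sign within at least one group. The log2 ratio of 5p to 3p ran from -1.07 to 6.34 in predicted rno-miR42, from -3.91 to 5.13 in predicted rno-miR446 and from -4.95 to 3.10 in predicted rno-miR247. Each of these holds an arm of wide range within a group.

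**Figure D5:**
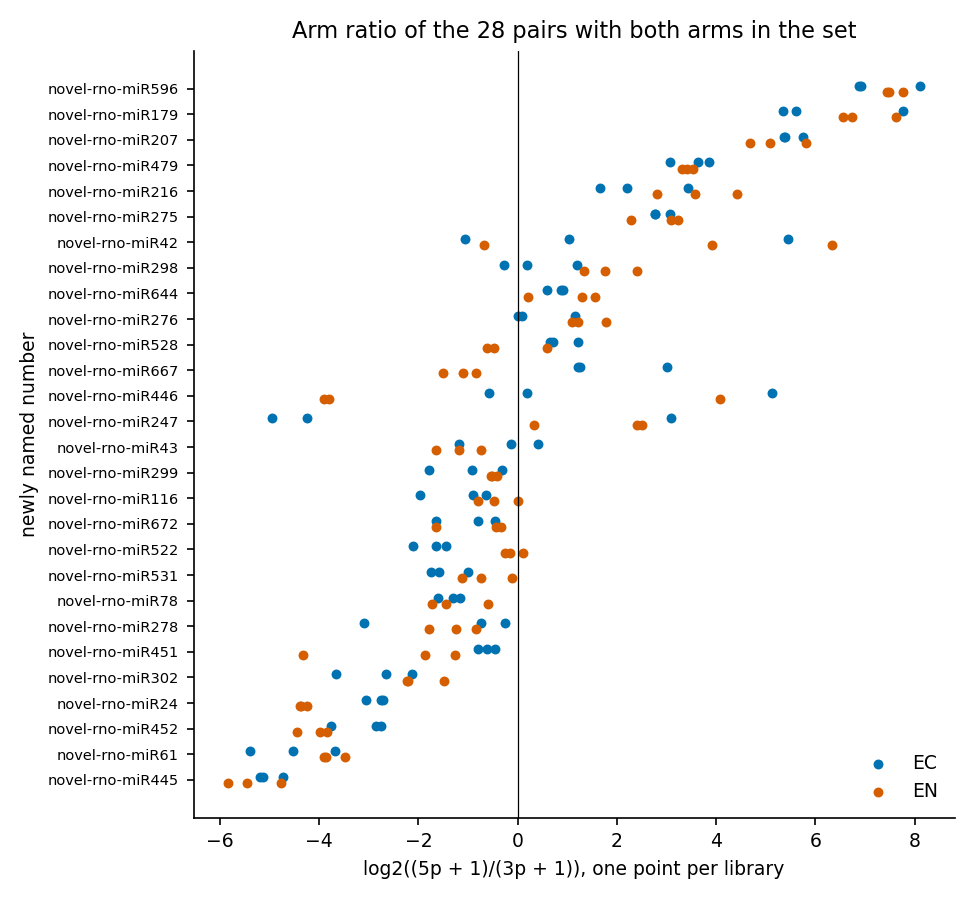
Log2 ratio of 5p to 3p counts, each plus 1 (horizontal axis), for the 28 newly named numbers with both arms in the set (vertical axis), with 1 point per library, EC blue and EN orange. For predicted rno-miR667 the 3 EC points lie above 0 and the 3 EN points below it, and predicted rno-miR42, predicted rno-miR446 and predicted rno-miR247 spread widely within the groups.

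Arm use was tested between EN and EC in 107 pairs of all kinds whose arms both averaged at least 20 counts, of which 5.61% passed (limma). Of 15 newly named pairs 1 passed. In predicted rno-miR667 the log2 ratio of 5p to 3p was 3, 1.22 and 1.26 in the EC libraries and -1.51, -1.10 and -0.85 in the EN libraries. The larger arm was thus 5p in every EC library and 3p in every EN library. The difference was -2.98 (SE 0.52, adjusted p = 0.0293, limma). It is not independent of the rise of predicted rno-miR667-3p above, whose counts reached the means of 10 and 20 only through EN. The counts of predicted rno-miR667-5p were 31, 13 and 23 in EC and 46, 47 and 74 in EN, which did not pass alone (log2 fold change 1.76, adjusted p = 0.0515, edgeR). The arm call was lost without EC replicate 3 (0.0909), EN replicate 1 (0.118), EN replicate 2 (0.0784) or EN replicate 3 (0.108), these values being limma's adjusted p.

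The other tested pairs of newly named rows did not pass. The largest differences among them were 1.47 for predicted rno-miR298 (adjusted p = 0.143), 1.17 for predicted rno-miR216 (adjusted p = 0.262) and -1.03 for predicted rno-miR528 (adjusted p = 0.176), all by limma. The large pairs differed less, by 0.79 in predicted rno-miR61 (SE 0.43), 0.27 in predicted rno-miR596 (SE 0.37) and -0.31 in predicted rno-miR207 (SE 0.31) and -0.10 in predicted rno-miR479 (SE 0.24), with limma's adjusted p from 0.281 to 0.839. The pairs predicted rno-miR179 and predicted rno-miR445 were not tested, since their minor arms had mean counts of 14.2 and 14.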

How the data were processed

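The authors deposited a whole-number read count for each miRNA and library, and beside it an RPM value. Each deposited RPM equals the count divided by 1 library total (tolerance 0.0015), which lay between 17861218 and 21207786 and exceeds the miRNA counts. Total RNA was harvested with Trizol for TruSeq libraries, per the labels' protocols. HISAT2 2.0.5 and Rnor 6.0 stand in the submitters' processing notes. For the counting program, the miRNA predictor, the annotation and the strand, nothing is given in the sources used here.

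The counts were tested on all rows with edgeR 4.0.16 in R 4.3.3 (filterByExpr, TMM, robust quasi-likelihood, Benjamini-Hochberg, threshold 0.05), and arm ratios with limma 3.58.1 on log2((5p + 1)/(3p + 1)). Shares were compared by exact permutation tests. The edgeR and limma fits were checked on simulated data. DESeq2 1.42.0, limma-voom, other scalings and filters, a replicate block and each library left out were alternatives.

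The rows and lists were chosen with earlier results of these data known. Rows named are the 10 most abundant, all that passed, the 6 largest arm pairs, the 6 of widest within-group range with a mean of 100 or more counts with their most alike and opposite rows, those at the limit of 10 counts, and the 3 known rows nearest to the most abundant one. Further rows of small pairs, of alternating pairs and just outside a threshold were named after their values were seen. Tables and exact tests used pandas 2.3.3 and scipy 1.17.1, and figures matplotlib 3.10.9, in Python 3.11.15.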

Additional observations from a re-analysis of the deposited data

How the results depend on the processing

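The count of 7 newly named rows that passed was 11 with total counts, 12 with known-row scaling, 23 with totals implied by RPM, 15 with no filter, 11 with a mean of 10 CPM or more, 26 with DESeq2 (48 rows had no adjusted p there) and 2 to 14 with 1 library left out. RLE factors gave 10 and limma-voom 6. These are counts of newly named rows alone, without the share of all rows that passed in each alternative. All 7 calls were among those of RLE factors, total counts, known-row scaling, totals implied by RPM, no filter and DESeq2. The filter of 10 CPM tested 99 newly named rows. It left out predicted rno-miR482-5p and predicted rno-miR519-5p, and the other 5 calls passed. With limma-voom 5 calls also passed, and the adjusted p was 0.0531 for predicted rno-miR318-5p and for predicted rno-miR482-5p.

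The difference in share ranged from -0.310 to 0.0197 percentage points with 1 library left out, and it was -0.0645 without the 19 rows of wide range, an alternative chosen after seeing the data. The median log2 fold change of the newly named rows was -0.15 with totals implied by RPM, where all rows had a median of -0.30. Log2 fold changes that did not pass also crossed 0 there, at -0.050 for predicted rno-miR9-3p, -0.12 for predicted rno-miR532-5p, -0.090 for predicted rno-miR596-5p and -0.12 for predicted rno-miR75-5p. For predicted rno-miR427-5p it was 0.0035 with known-row scaling and -0.16 to 0.015 with 1 library left out, for predicted rno-miR226-3p -0.35 to 0.00049 and for predicted rno-miR75-5p -0.020 to 0.49. The call missed by predicted rno-miR570-5p was made with totals implied by RPM, no filter and DESeq2. That missed by predicted rno-miR61-3p was made with DESeq2 and without EC replicate 2. The count of 1 arm pair was 3 with a mean of 10 counts in both arms, beside 7 of 139 pairs of all kinds. With 1 library left out it was 0 to 4, beside 1 to 13 calls among 106 to 110 pairs of all kinds. In those fits limma's unadjusted p was under 0.05 in 1 to 9 newly named pairs. The arm difference of predicted rno-miR479 ran from -0.32 to 0.067. The causes were not tested. The median within-group SDs moved by less than the SD over rows of their class in every alternative. That limit is too wide to show that they are stable. From 10 to under 100 counts they were 0.35 (newly named) and 0.29 (known) with EC alone, against 0.43 and 0.39.

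No shared origin of same-numbered EC and EN libraries is stated, so the numbers were not taken as pairs. The deviations of same-numbered libraries from their group means had r of 0.091, -0.036 and 0.018, against -0.12 to 0.095 for different numbers. With 3 libraries in each group, such values cannot show whether same-numbered libraries share an origin. With the replicate block 2 newly named rows passed, predicted rno-miR667-3p and predicted rno-miR318-5p. In that setting 0 newly named arm pairs passed (7 at an unadjusted p under 0.05, limma), as did 0 of 107 pairs of all kinds. The share difference had an exact permutation p of 0.75 with the replicate block. Counts under 20 a library limit what can be seen in the scarcest rows.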
